A study of Mus musculus with 4 samples.

Results

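The tumour suppressor p53 and the genes it is known to control were examined as a set of 34 mouse genes, among 34797 genes on the array. They were the gene spots whose listed gene name was one of the 34, and they took up 44 of 55681 probes and 55 of 59305 spots. The set holds Trp53, which encodes p53, its inhibitors Mdm2 and Mdm4, and the genes they target. The targets were grouped by known role into 9 cell cycle and growth arrest genes, 13 cell death genes, 5 genes of DNA repair and nucleotide supply, and 4 genes of stress, secretion and metabolism. Of the 34 genes, 33 had at least 1 probe that passed the filter on dim probes and were tested, as were 41 of the 44 probes.

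The study asked what RelA, a subunit of the transcription factor NF-kB, does in the epidermis during a contact allergic reaction. RNA came from whole ears of 4 mice painted with 2,4-dinitrofluorobenzene (DNFB), a contact allergen, and collected after 48 h. All 4 mice carried the floxed RelA allele (RelAfl/fl). The 2 mutant mice (RelAE-MUT) also carried K14Cre, a recombinase driven by the promoter of keratin 14, and the 2 wild-type mice did not. The effect of losing RelA therefore cannot be told apart from an effect of the recombinase itself. No untreated ear was in the series, so the values compare genotypes within DNFB-treated skin only. Keratin 14 marks basal keratinocytes, and a whole ear also holds dermis, vessels, cartilage, muscle and immune cells in which K14Cre is not active. In such bulk RNA, fewer cells of a type and less RNA per cell cannot be told apart.

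p53 is held at a low level by Mdm2, which marks it for destruction, and by Mdm4, which blocks its activity. DNA damage and other stresses release it, mostly at the level of the protein, and it then binds a paired sequence motif near its target genes and switches them on. Among these targets are the cell cycle inhibitor Cdkn1a (p21), death genes such as Bax and Bbc3 (Puma), repair genes, and Mdm2 itself, which closes a feedback loop. In skin the pathway is best known for the response of keratinocytes to ultraviolet light.

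Values below are log2 intensities relative to the 75th percentile of the same array, so that 0 is the brightness of that percentile, and they are given in the order wild-type mouse 1, wild-type mouse 2, mutant mouse 1 and mutant mouse 2. A difference is the mutant mean minus the wild-type mean on that log2 scale, with limma's standard error (SE) and with n = 2 mice in each group. A gene with several tested probes is counted at the brightest. Probe positions are those of the mouse build mm9 in the files, which do not say whether a probe lies in an exon of the coding part or outside it. Levels were compared between mice for 1 probe at a time, never between probes.

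The arrays were alike in depth of signal, with median spot intensities of 47.2 to 54.6 and with 61.2 to 64.3% of gene spots well above background. The array of mutant mouse 2 had a dim corner of 2264 gene spots, and it correlated with the others at r = 0.983 to 0.988, against 0.993 among the other 3 arrays. Of the 55 spots of the set, 5 lie in that corner: those of Sesn1 and Tnfrsf10b, both of Ercc5, and 1 of the 10 spots of the main Cdkn1a probe. The targeted gene, Rela, read 4.48, 4.60, 4.59 and 4.72 at its probe on chromosome 19 (chr19:5648070-5648129), a difference of 0.11 ± 0.12 (SE, n = 2 per group; adjusted p = 0.900, limma with Benjamini-Hochberg adjustment). That probe cannot check the genotype, because the sources used here do not say which exons are deleted and because the ear holds many cells without K14Cre; its spot also lies in the dim corner. The keratinocyte markers Krt5 and Krt14 were well above background on all 4 arrays.

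Sequences are shown here for Cdkn1a and Gtse1, because the probe with the strongest difference among the 44 belongs to Cdkn1a and because the p53 motif was found in promoters of both genes. The Cdkn1a probe that the files assign to transcript variant 2 (NM_001111099) lies at chr17:29227986-29228045 of mm9 on the plus strand, 9391 bases before the probe shared by both listed transcripts. In RefSeq (GRCm38.p6) the gene has 2 annotated starts 2790 bases apart, and no file here pairs a start with a transcript. Each promoter window runs from 250 bases before to 50 bases after a start, and capitals mark a full p53 motif. The first Cdkn1a window is chr17:29090729-29091028, the second chr17:29093519-29093818, and the Gtse1 window chr15:85859696-85859995, all of GRCm38.p6 and all on the plus strand.
Cdkn1a transcript variant 2 probe: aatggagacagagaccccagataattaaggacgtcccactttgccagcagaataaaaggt
Cdkn1a promoter, first start: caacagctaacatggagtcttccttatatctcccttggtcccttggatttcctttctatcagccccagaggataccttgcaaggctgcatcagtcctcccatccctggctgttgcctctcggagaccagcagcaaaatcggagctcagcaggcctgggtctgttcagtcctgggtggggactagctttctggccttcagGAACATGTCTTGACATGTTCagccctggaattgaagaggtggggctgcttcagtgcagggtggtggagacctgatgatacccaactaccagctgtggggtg
Cdkn1a promoter, second start: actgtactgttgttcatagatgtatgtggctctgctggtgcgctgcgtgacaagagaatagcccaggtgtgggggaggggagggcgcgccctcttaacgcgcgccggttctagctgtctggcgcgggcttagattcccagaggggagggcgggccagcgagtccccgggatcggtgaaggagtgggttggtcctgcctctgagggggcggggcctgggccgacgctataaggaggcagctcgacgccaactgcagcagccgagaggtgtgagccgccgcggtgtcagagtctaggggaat
Gtse1 promoter, second start: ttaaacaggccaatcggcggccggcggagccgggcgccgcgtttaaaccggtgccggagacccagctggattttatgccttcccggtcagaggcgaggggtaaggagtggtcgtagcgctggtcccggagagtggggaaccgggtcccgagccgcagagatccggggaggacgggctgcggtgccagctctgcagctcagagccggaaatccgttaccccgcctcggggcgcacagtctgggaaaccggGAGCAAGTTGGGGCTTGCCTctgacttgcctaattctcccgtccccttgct
The motif begins 51 bases before the first Cdkn1a start and differs from the consensus at 1 base. The window of the second Cdkn1a start holds neither a full motif nor a half-site. In Gtse1 the motif lies across the start itself.

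The motif was searched on both strands as the p53 consensus half-site of 10 bases without mismatch, and as the full site of 2 half-sites end to end, 20 bases with at most 2 mismatches outside the invariant core. RefSeq promoters were found for 26 of the 34 genes, with 36 windows among them. The genes without an entry were Trp53inp1, Zmat3, Tnfrsf10b, Ddb2, Xpc, Rrm2b, Perp and Pmaip1. A half-site was found in 13 of the 36 windows (36.1%) and in 2745 of all 32851 windows (8.36%). A full site was found in 3 of the 36 windows (8.33%) and in 52 of all windows (0.158%). The third window with a full site belongs to Ckap2, where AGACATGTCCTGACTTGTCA begins 203 bases before the start. Most members were listed as known p53 targets. A higher share of motifs than over all windows may follow from that choice and is no result of these arrays. Windows of the same gene can overlap, and the 13 windows with a half-site belong to 12 genes. A half-site says only that these letters are in the window. It was present in 5 of the 10 genes with an entry that had an unadjusted p under 0.05, and in 7 of the 16 others, among which Eda2r was not tested.

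Across the set, values leaned to the mutant mice, but no gene passed the adjusted threshold of 0.05. Of the 33 tested genes, 30 had a higher mean in the mutant ears and 3 a lower one, where 53.5% of all 23624 tested genes had a higher mean and 46.5% a lower one. No member had an adjusted p under 0.05 at its brightest probe (limma with Benjamini-Hochberg adjustment; the smallest was 0.489, for Psrc1), and 0.0169% of all genes did, which is 4 genes. At an unadjusted p under 0.05, 13 members were higher (39.4%) and 0 were lower, against 2.82% and 3.31% of all genes. The median difference over the 33 members was 0.24, against 0.01 over all genes. The members were chosen with earlier results of these data known. These shares and medians therefore describe the list and are no test of it. With 2 mice in a group an exact permutation test cannot give a p below 0.333, so the p-values rest on the spread that limma pools over all probes.

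Both mutant mice lay above both wild-type mice for 20 of the 33 members (60.6%), against 18.9% of all genes. Both lay below for 2 members, Ddb2 and Rrm2b, where the share of all genes was 17.4%. After the mean of each gene over the 4 mice was subtracted, the median over the members was -0.17 and -0.11 in the wild-type mice and 0.19 and 0.12 in the mutant mice. In each of the 7 genes with several tested probes, all probes had the same sign. The 13 members with an unadjusted p under 0.05 were Trp53inp1, Psrc1, Plk2, Tnfrsf10b, Polk, Gtse1, Zmat3, Aen, Ercc5, Ccng1, Btg2, Cdkn1a and Dcxr. Each mouse was also left out in turn. Such a fit leaves 1 mouse in a group and has fewer residual degrees of freedom, so effect sizes are given here. The differences of the 13 genes stayed above 0 in each of these fits. With the mice left out in the order used above, the median over the 33 members was 0.24, 0.34, 0.28 and 0.35. Over all genes it was -0.01, 0.02, 0.02 and 0.01. The 4 members with the smallest p in the main fit were Psrc1, Zmat3, Tnfrsf10b and Trp53inp1. Their differences ran from 0.63 to 0.76, 0.49 to 0.55, 0.54 to 0.77 and 0.62 to 0.98.

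**Figure D1:**
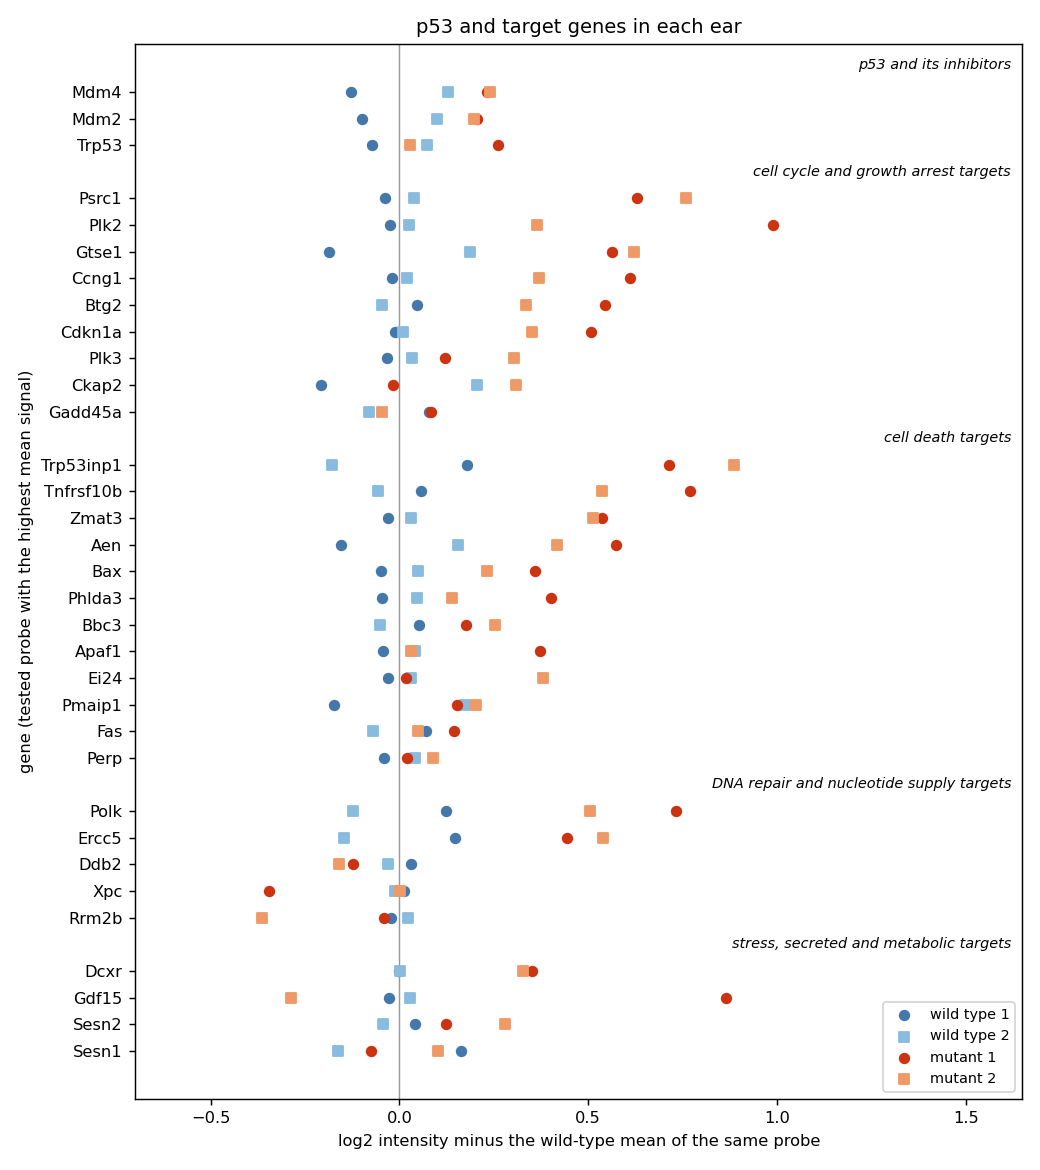
Each row is a member gene at its brightest tested probe, grouped by role, and the x axis gives the log2 intensity of each mouse minus the wild-type mean of that probe. Blue symbols are the 2 wild-type mice and red and orange symbols the 2 mutant mice; both mutant symbols lie to the right of both wild-type symbols in 20 of the 33 rows.

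**Figure D2:**
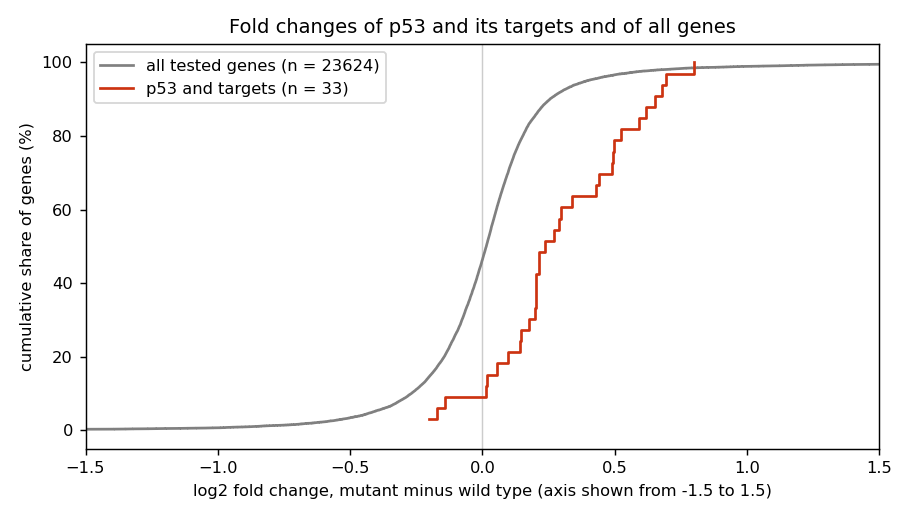
The x axis is the log2 fold change, mutant minus wild type, and the y axis the cumulative share of genes in percent, for the 33 tested members (red) and all 23624 tested genes (grey). The red curve lies to the right of the grey one over most of its range, with medians of 0.24 and 0.01.

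Trp53 itself did not separate the genotypes. Its probe (chr11:69404204-69404263) read -2.21, -2.06, -1.87 and -2.11, so that mutant mouse 2 fell between the wild-type mice, and the difference was 0.14 ± 0.14 (adjusted p = 0.895, limma with Benjamini-Hochberg adjustment). Mdm2, the ubiquitin ligase that is both an inhibitor and a target of p53, read 3.24, 3.44, 3.55 and 3.54 (chr10:117126010-117126069). The mutant values lay just above the wild-type ones, by 0.20 ± 0.13 (adjusted p = 0.861). Mdm4 read -1.24, -0.99, -0.89 and -0.88 at its brighter probe, a difference of 0.24 ± 0.14 (adjusted p = 0.850), and 0.15 ± 0.12 at the other. At the brighter probe both mutant mice were higher, with wild-type mouse 2 close to them. None of the 3 genes had an unadjusted p under 0.05.

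The cell cycle and growth arrest genes were the role group with the highest median, 0.44 over 9 genes, and 6 of the 9 had an unadjusted p under 0.05, all higher in the mutants, against 2.82% of all genes. Groups did not overlap for 7 of the 9, all higher, against 18.9% of all genes. None passed the adjusted threshold at its brightest probe.

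Cdkn1a encodes p21, the inhibitor of cyclin-dependent kinases through which p53 halts the cell cycle. Its main probe (chr17:29237377-29237436), which the files list for both transcripts, read 2.58, 2.60, 3.09 and 2.94. Both mutant mice were higher, by 0.43 ± 0.12 (unadjusted p = 0.018; adjusted p = 0.661, limma with Benjamini-Hochberg adjustment). The repeat spots of this probe give the technical spread within a mouse. Without outlier spots, 9 were left on each wild-type array and 10 on each mutant array, and they ran from 2.54 to 2.60 and from 2.56 to 2.65 in the wild-type mice, and from 3.05 to 3.15 and from 2.89 to 3.03 in the mutant mice. The ranges of the mutant arrays did not overlap those of the wild-type arrays, which says nothing of the spread between mice.

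The probe of transcript variant 2, whose sequence is printed above, gave a much larger difference. It read -4.19 and -4.41 in the wild-type mice and -2.34 and -2.30 in the mutant mice, all well above background. The difference was 1.98 ± 0.13, a fold of 3.94, with an unadjusted p of 4.4e-05 that ranked 10 among the 33664 probes tested. The adjusted p was 0.147 (limma with Benjamini-Hochberg adjustment), so it did not pass, and neither did any other member probe, where 0.0208% of all probes did. Its difference lay between 1.87 and 2.09 in all settings tried but normexp background correction, which gave 1.03. The probe is dim on all 4 arrays, and the size of its difference depended on the background correction. Its adjusted p fell to 0.0141 when limma's prior was fitted with a trend and robustly. In that setting 26 of all genes passed at their brightest probes, against 4 in the main fit. The third Cdkn1a probe (chr17:29235299-29235358) lies between the main probe and that of transcript variant 2, and read -2.52, -2.72, -2.51 and -2.37. Mutant mouse 1 was level with wild-type mouse 1 there, and the difference was 0.18 ± 0.13 (adjusted p = 0.873). The 3 probes thus had the same sign and differences of unequal size; whether the differences are unequal was not tested.

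**Figure D3:**
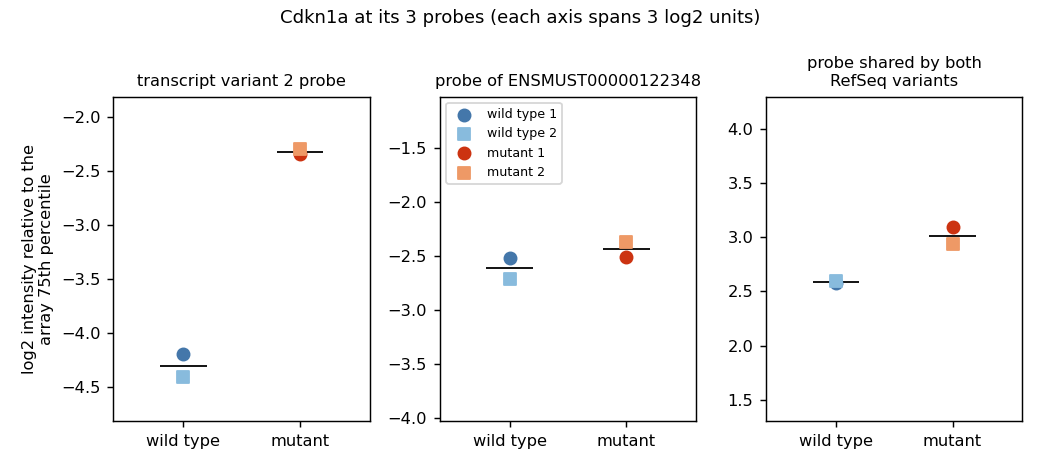
Each panel is 1 Cdkn1a probe, with the log2 intensity relative to the 75th percentile of the array on the y axis, a symbol for each mouse and a line at each group mean. All 3 axes span 3 log2 units, so the difference of 1.98 at the transcript variant 2 probe can be set by eye against 0.18 at the middle probe and 0.43 at the shared probe. The transcript variant 2 probe is dim, and its difference was 1.03 with normexp background correction.

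Psrc1, a microtubule-binding protein of the spindle, had the smallest p of the brightest probes. It read -0.59 and -0.51 in the wild-type mice and 0.08 and 0.21 in the mutant mice, a difference of 0.69 ± 0.12 (unadjusted p = 0.00276; adjusted p = 0.489). Gtse1, which binds microtubules and restrains p53 in the G2 phase, read -1.44, -1.07, -0.69 and -0.64, a difference of 0.59 ± 0.16. Both groups were apart, though the wild-type mice differed from each other by nearly as much as the gap between the groups. Ccng1, which encodes cyclin G1, read 1.18, 1.22, 1.81 and 1.57, a difference of 0.49 ± 0.13. Btg2, an antiproliferative gene, read 0.91, 0.81, 1.40 and 1.19, a difference of 0.44 ± 0.13. In both of these genes mutant mouse 1 was the highest. The adjusted p-values of Gtse1, Ccng1 and Btg2 ran from 0.654 to 0.688 (limma with Benjamini-Hochberg adjustment).

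Plk2, a polo-like kinase, had a difference of 0.68 ± 0.23, and its values of 0.40 and -0.22 in the mutant mice were further apart than those of any other gene of this group. Plk3, a related kinase, differed by 0.21 ± 0.12 with both mutant mice higher. Ckap2, a spindle protein, differed by 0.15 ± 0.20 and overlapped between the groups. Gadd45a, a classic growth arrest and DNA damage gene, was the flattest of this group, with overlap and a difference of 0.02 ± 0.13.

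The cell death genes had a median difference of 0.24 over 12 tested genes. All 12 had a higher mean in the mutants, against 53.5% of all genes. Of these, 7 were without overlap, against 18.9%, and 4 had an unadjusted p under 0.05, against 2.82%. These 4 were Trp53inp1, Tnfrsf10b, Zmat3 and Aen, while the classic BCL-2 family targets Bax, Bbc3 and Pmaip1 had smaller differences.

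Trp53inp1, a nuclear protein induced by stress that takes part in p53-dependent death, had the largest difference of any brightest probe in the set. It read 1.30 and 0.94 in the wild-type mice and 1.84 and 2.01 in the mutant mice, 0.80 ± 0.17 higher, a fold of 1.74 (unadjusted p = 0.00661; adjusted p = 0.564). Its other probe gave 0.56 ± 0.20 in the same direction. Tnfrsf10b, the mouse receptor for the death ligand TRAIL, read -0.24 and -0.35 against 0.48 and 0.24, a difference of 0.65 ± 0.14 (adjusted p = 0.562). Its spot lies in the dim corner of the array of mutant mouse 2, and without that mouse the difference was 0.77. Zmat3, an RNA-binding zinc finger protein, read 1.16 and 1.22 against 1.73 and 1.71, a difference of 0.52 ± 0.11 (adjusted p = 0.561). Aen, an apoptosis-enhancing nuclease, read 3.32, 3.63, 4.05 and 3.89 at its brighter probe, a difference of 0.50 ± 0.16 (adjusted p = 0.715). Its second probe overlaps the first by 50 bases and gave 0.53 ± 0.15, so the 2 are not separate evidence. For all 4 genes both mutant mice were above both wild-type mice.

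Bax, the pore-forming death effector of mitochondria, read 2.50, 2.60, 2.91 and 2.79, a difference of 0.30 ± 0.12 (unadjusted p = 0.061; adjusted p = 0.782). Its groups did not overlap. Phlda3, an inhibitor of the kinase AKT, differed by 0.27 ± 0.14, and Bbc3, the BH3-only protein Puma, by 0.21 ± 0.11, both without overlap. The groups overlapped for Apaf1, the scaffold of the apoptosome (0.20 ± 0.16), for Ei24 (0.20 ± 0.16), for Pmaip1, the BH3-only protein Noxa (0.18 ± 0.16), for the death receptor Fas (0.10 ± 0.12) and for Perp, a desmosome protein of the epidermis (0.05 ± 0.11). Perp took a negative sign under quantile normalization. Eda2r, the receptor for ectodysplasin A2, had 2 probes that were not well above background on any array, and it was not tested.

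The DNA repair and nucleotide supply genes were split. Polk and Ercc5 had higher values in the mutants at an unadjusted p under 0.05, where 2.82% of all genes did. Ddb2, Rrm2b and Xpc had lower means, where 46.5% of all genes did, so that the median over the 5 genes was -0.14.

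Polk, a DNA polymerase that copies past damaged bases, read -1.95, -2.19, -1.34 and -1.57 at its brighter probe, a difference of 0.62 ± 0.15 (adjusted p = 0.605). Its other probe gave 0.72 ± 0.17 with both mutant mice again higher. Ercc5, an endonuclease of nucleotide excision repair, read -0.33, -0.62, -0.03 and 0.06 at its brighter probe, a difference of 0.49 ± 0.15 (adjusted p = 0.691). Its second probe gave 0.27 ± 0.15, and both probes lie in the dim corner of mutant mouse 2. Without that mouse the difference at the brighter probe was 0.44, and with the corner left out Ercc5 could not be tested.

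Ddb2, which recognises ultraviolet damage, read 0.29, 0.23, 0.14 and 0.10, a difference of -0.14 ± 0.11 (adjusted p = 0.876). Rrm2b, the p53-induced subunit of ribonucleotide reductase, read -2.86, -2.82, -2.88 and -3.20, a difference of -0.20 ± 0.15 (adjusted p = 0.874). Mutant mouse 1 lay only just below the wild-type mice, and a second Rrm2b probe was not well above background on any array. Xpc, which starts global repair, read 1.03, 1.01, 0.68 and 1.02. Only mutant mouse 1 was low, and the difference of -0.17 ± 0.16 (adjusted p = 0.889) went to 0.000529 without that mouse.

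Of the 4 stress, secreted and metabolic genes, 1 was higher at an unadjusted p under 0.05, and 2 were higher without overlap. Over the whole array, 2.82% of the tested genes met the first condition and 18.9% the second. Dcxr, an enzyme of sugar metabolism, read 0.24, 0.25, 0.60 and 0.57 at its brighter probe, a difference of 0.34 ± 0.11 (adjusted p = 0.715), and its other probe gave 0.27 ± 0.14. Sesn2, a sestrin that restrains the kinase mTORC1, read 1.15, 1.07, 1.23 and 1.39, a difference of 0.20 ± 0.12 without overlap (adjusted p = 0.855). Sesn1, its relative, read 2.20, 1.87, 1.96 and 2.14, with overlap and a difference of 0.01 ± 0.16 (adjusted p = 0.992). Its spot lies in the dim corner, and its sign turned under several settings.

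Gdf15, a secreted stress cytokine, was the member on which the mutant mice were furthest apart. It read -3.18 and -3.12 in the wild-type mice, -2.28 in mutant mouse 1 and -3.44 in mutant mouse 2. The mutant mice lay on either side of the wild-type mice, and the difference was 0.29 ± 0.40 (adjusted p = 0.920). Without mutant mouse 2 it was 0.87, and without mutant mouse 1 it was -0.29.

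**Figure D4:**
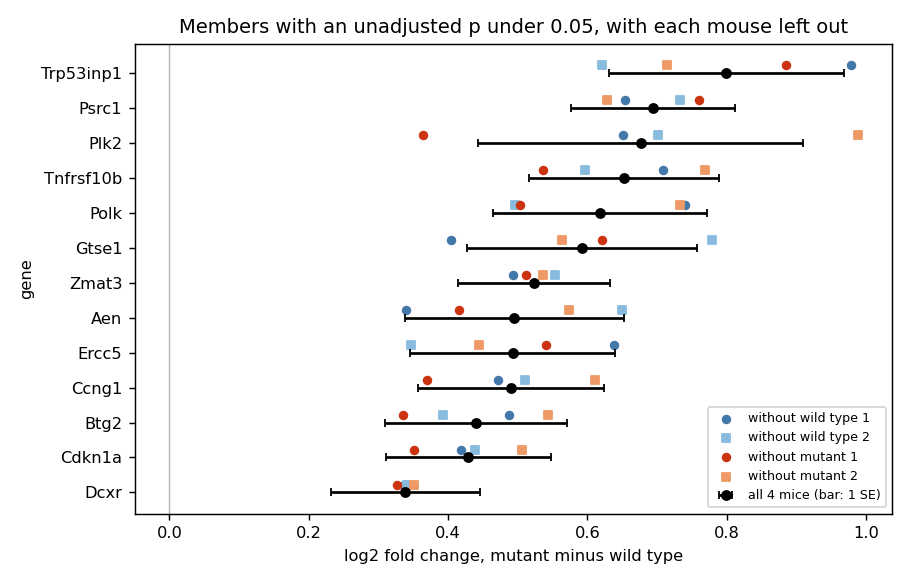
Black points give the log2 fold change, mutant minus wild type, of the 13 members with an unadjusted p under 0.05, with bars of 1 SE, and coloured symbols give it with 1 mouse left out. All leave-one-out values of these 13 genes lie above 0, and Plk2 has the widest range.

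Regulators of p53 and further p53 targets had medians nearer to that of all genes than the members had. These lists were drawn up by known role. Like the members, they were chosen with earlier results of these data known, so the contrast is no test. Among 14 kinases, ligases and other regulators of p53, 0 had an unadjusted p under 0.05 in either direction and the median difference was 0.02. The 4 with the smallest p were Atm (0.17 ± 0.11) and Atr (0.20 ± 0.15), the kinases that sense DNA breaks and stalled replication, the ligase Rchy1 (0.17 ± 0.11) and the acetyltransferase Crebbp (-0.15 ± 0.11). Of all genes, 53.5% had a higher mean and 2.82% were higher at an unadjusted p under 0.05. Among 17 tested of 18 further p53 targets that are not in the set, 9 had a higher mean, 1 had an unadjusted p under 0.05 and the median was 0.02. The 4 with the smallest p were Ephx1 (0.33 ± 0.12), a detoxifying hydrolase, Pltp (0.25 ± 0.11), a lipid transfer protein, Igfbp3 (-0.26 ± 0.15), which binds insulin-like growth factors, and Steap3 (0.40 ± 0.26), a ferrireductase. None of these genes had an adjusted p under 0.05.

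Of the relatives of p53, Trp63, the master regulator of the basal epidermis, differed by 0.04 ± 0.12. Trp73 read -0.93, -0.75, -0.41 and -0.51, with both mutant mice higher by 0.38 ± 0.13 (unadjusted p = 0.036; adjusted p = 0.731, limma with Benjamini-Hochberg adjustment). The 14 mitotic genes that p53 is known to lower through p21 all had a higher mean in the mutants, against 53.5% of all genes. Their median was 0.19, and 0 had an unadjusted p under 0.05. Both mutant mice lay above both wild-type mice for 2 of the 14, a share no higher than the 18.9% of all genes. Wild-type mouse 1 was low and wild-type mouse 2 was not: the medians of the centred values were -0.34 and 0.15 in the wild-type mice and 0.03 and 0.17 in the mutant mice. Ccnb1, which encodes the mitotic cyclin B1, was the member of this list with the smallest p and differed by 0.31 ± 0.18. It was followed by the kinase Aurkb (0.21 ± 0.16), Birc5 (0.25 ± 0.21) and Cdc20 (0.25 ± 0.22).

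Several p53 targets also respond to other stress signals, and 2 lists of such signals were measured beside them. All 11 tested immediate early genes had a higher mean in the mutants, against 53.5% of all genes. These genes answer growth and stress signals within minutes, and their median was 0.44. Groups did not overlap for 9 of them, against 18.9% of all genes, and 5 had an unadjusted p under 0.05, against 2.82%. Egr2 was not tested, because its spot was flagged as an outlier on the array of mutant mouse 2, and Egr3 was too dim. Fos read 1.25 and 1.45 against 2.21 and 2.28, a difference of 0.89 ± 0.13 (adjusted p = 0.442). Fosb (1.10 ± 0.26), Atf3 (0.49 ± 0.12) and Egr1 (0.67 ± 0.17) also had both mutant mice above both wild-type mice. Of 10 genes of the integrated stress response, 2 had an unadjusted p under 0.05, the cystine transporter Slc7a11 (0.44 ± 0.16) and Chac1 (0.66 ± 0.25), which breaks down glutathione. Nupr1 (-0.33 ± 0.14) and Trib3 (0.12 ± 0.11) came next, and the median was 0.11. The part of these signals in the values of the p53 targets was not tested.

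Markers of some cell types also had different levels in the 2 groups. For comparison, 2.82% of all genes were higher and 3.31% lower at an unadjusted p under 0.05. Of all genes, 53.5% had a higher mean and 18.9% were higher without overlap. All 5 melanocyte markers were higher in the mutants at an unadjusted p under 0.05, with a median difference of 1.22 and medians of centred values of -0.45 and -0.73 in the wild-type mice and 0.47 and 0.67 in the mutant mice. Of the 4 eosinophil markers, Siglecf (Siglec5 in the files) was higher by 0.96 ± 0.25 and Ccr3 by 0.70 ± 0.20, both at an unadjusted p under 0.05. Prg2 was well above background on 1 of the wild-type arrays and both mutant arrays, so it was tested only through the group where it is high, and Epx was not well above background on any array. All 5 markers of stressed keratinocytes had a higher mean, with a median of 0.64, 4 without overlap and 1 at an unadjusted p under 0.05; their centred medians were -0.61 and 0.05 in the wild-type mice and 0.36 and 0.27 in the mutant mice. The markers of basal keratinocytes, the cells in which keratin 14 is active, had a median of 0.10, but 1 of the 5, Krt15, was lower: it read 6.06, 5.74, 5.03 and 5.28, a difference of -0.74 ± 0.17 (unadjusted p = 0.00953; adjusted p = 0.588). The medians were 0.06 for neutrophil, 0.04 for fibroblast, -0.03 for cartilage, -0.11 for endothelial, -0.13 for macrophage, -0.13 for suprabasal keratinocyte, -0.16 for T cell, -0.21 for skeletal muscle, -0.30 for adipocyte and -0.38 for B cell markers. At an unadjusted p under 0.05, 1 macrophage and 1 B cell marker were lower. The neutrophil marker Ngp, the cartilage marker Matn1 and the B cell marker Ms4a1 were not well above background on any array. The neutrophil marker Ltf was well above background on 1 array at most and was not tested, so the neutrophil median rests on 4 of 6 markers. The part of these cell types in the values of the p53 targets was not tested.

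**Figure D5:**
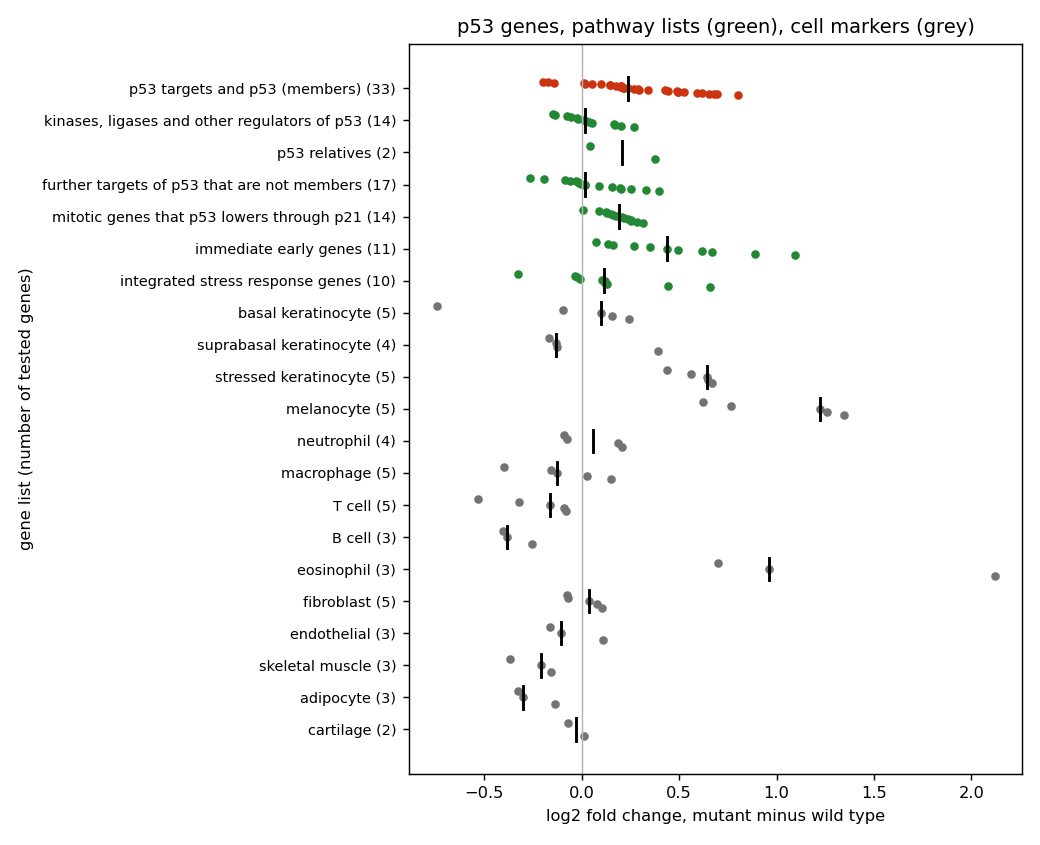
Each point is the log2 fold change, mutant minus wild type, of 1 tested gene, and each black line the median of its list, with the number of tested genes in brackets. The members (red) have a median of 0.24, and of the marker lists (grey) that of melanocytes, 1.22, is the highest.

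Genes near some members also differed between the mice. Within 1 Mb on either side of Sesn2 on chromosome 4, 11 of 51 tested genes (21.6%) had an unadjusted p under 0.05, 4 higher and 7 lower, against 6.13% of all genes. Around Trp53 on chromosome 11 it was 19 of 114 genes (16.7%), 7 higher and 12 lower. The shares were 3 of 16 around Polk and 4 of 23 around Ei24, and the median over the members was 4.88%. Whether the mice differ in genetic background at these places was not tested.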

How the data were processed

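Whole-ear RNA of 2 wild-type and 2 mutant mice, 100 ng each, was hybridised to 4 one-colour (Cy3) arrays. The deposited intensities had been read with Agilent Feature Extraction 10.7.3.1, per the file headers, with background subtracted and no scaling between arrays; probe positions are on mm9. The deposited flags (well above background, outlier) are values of 0 or 1, per the file headers. The authors' deposited series table holds the ratio of each processed intensity to the array median, found from its match to 59305 spots.

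The 3671 control spots and outlier spots were left out, log2 intensities were centred on the array's 75th percentile, and spots of a probe were averaged. Probes well above background on both arrays of a group and with a spot free of outlier flags on every array (33664) were fitted with limma 3.58.1 in R 4.3.3 (lmFit, eBayes; two-sided; Benjamini-Hochberg over all probes; threshold 0.05), which had 2 residual degrees of freedom and gave a median SE of 0.137 over genes. The labels say that mice were used, not how they were paired or bred, and the number of arrays limits the precision. The fit was tested on simulated data.

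The members and gene lists were chosen with earlier results of these data known. All members are named; values per mouse are given for Trp53, Mdm2, Mdm4, Cdkn1a, up to 5 members per role with the smallest p, and members in the dim corner of the array of mutant mouse 2; elsewhere up to 4 genes per pathway list are named. Plk2's values in the mutant mice were added after they were seen. That corner (rows 1 to 120, columns 145 to 164) was outlined from all spots. In all, 18 alternatives were run, covering background correction, scaling, filter, probe summary, eBayes options, weights, the replicate number, the corner and each array left out.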

Additional observations from a re-analysis of the deposited data

How the results depend on the processing

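Across all 18 alternatives no member passed the adjusted threshold at its brightest probe, and 0 members were lower at an unadjusted p under 0.05. The count of 13 higher members was between 10 and 15 under the alternatives that kept all 4 mice. Among all genes, 2.21 to 3.66% were higher at that limit under the same alternatives. The member count was 11 of 30 with the dim corner left out, against 2.92% of all genes. Sesn1, Ercc5 and Tnfrsf10b could not be tested there. With each mouse left out in turn it ran from 5 to 11, and the median difference ran from 0.24 to 0.35. With limma's trend and robust options, 1 member probe passed the threshold, that of Cdkn1a transcript variant 2 (adjusted p = 0.0141, 1.98). Under those options 26 of all genes passed at their brightest probes, against 4 in the main fit. Over the alternatives for the transcript variant 2 probe, the adjusted p ran from 0.0141 to 0.632. Sesn1 turned to -0.0681 with normexp, -0.00344 with quantile normalization and -0.00106 with the percentile of brightness taken over the detected probes alone, and Perp to -0.0181 with quantile normalization. With each mouse left out, signs turned for Ckap2 (-0.0614 to 0.35), Gadd45a (-0.0617 to 0.10), Sesn1 (-0.15 to 0.17), Gdf15 (-0.29 to 0.87) and Xpc (-0.34 to 0.000529). The cause of these turns was not tested.

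Replicate numbers are shared between the groups but pair nothing that the labels name. The deviations of same-numbered samples had only a weak negative correlation (r = -0.159). With the replicate number as a block, 11 members were higher at an unadjusted p under 0.05, with 2.69% of all genes higher. In that fit 0 members passed the adjusted threshold. A crossed block, chosen after seeing the data, gave 12 and 0, with 3.58% of all genes higher. Both blocks leave fewer degrees of freedom, as does leaving out a mouse.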
